A study of Mus musculus with 80 samples.

Results

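N6-methyladenosine (m6A) reader genes encode proteins that bind m6A-marked RNA. The 10 readers described here (Ythdc1, Ythdc2, Ythdf1, Ythdf2, Ythdf3, Igf2bp1, Igf2bp2, Igf2bp3, Hnrnpa2b1 and Fmr1) were chosen by name, as the gene symbols of the deposited expression tables, and all 10 were found among the 22556 genes of each of the 6 tables. All 10 passed the filter of an average of 1 CPM (reads scaled to the library's total) or more in every fit. The question was how the chromatin-associated RNA of each responds to loss of METTL3, of the reader YTHDC1 itself and of the exosome adaptors ZCCHC8 and ZFC3H1.

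m6A is written on nascent RNA by the METTL3-METTL14 complex and is recognised by proteins with a YTH domain, which hold the methylated base in an aromatic cage. YTHDC1 is the nuclear member of that family and acts in splicing, export and decay of nuclear RNA. YTHDF1, YTHDF2 and YTHDF3 are cytoplasmic and are best known for directing marked mRNAs to decay and translation, YTHDC2 is an RNA helicase required in the germ line, and the IGF2BP proteins, HNRNPA2B1 and FMRP are RNA-binding proteins reported to favour marked RNA by other means.

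The study sequenced RNA that stays in the chromatin pellet of mouse embryonic stem (ES) cells from a Cast x 129S cross, in 80 libraries. Xist on one X is under a promoter that doxycycline (Dox) switches on, which starts silencing of the X it sits on. In degron lines the endogenous protein carries an FKBP12 F36V tag and is removed by the small molecule dTAG-13. Each line was sequenced untreated, with dTAG-13, with Dox at 1 µg per ml for 24 h, and with dTAG-13 for 26 h including the 24 h of Dox. For dTAG-13 alone the sample titles give 26 h and another label field gives a shorter time, and the titles were followed.

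The METTL3 line was represented by 4 clones, tagged at the N terminus (G4 and H1) or the C terminus (C3 and H5). YTHDC1 had the clones Y9F and Y12H, sequenced in 2 experiments that are called the first and the second, ZCCHC8 (the NEXT complex) had Z4F and Z12H, and ZFC3H1 (the PAXT complex) had 8H and 11A. The YTHDC1 and ZCCHC8 clones have the inducible Xist on the 129S allele with Bgl stem-loops, and the others have it on the Cast allele. The transgene lines were made in clone H5, so that dTAG-13 removes the endogenous METTL3 while GFP-METTL3, wild type (WT) or with the catalytic-site change D395A, is expressed from Rosa26. Each was 1 clone with both X chromosomes (XX) and 1 clone that keeps only the X with inducible Xist (XiO), in 2 experiments each. Clones of a degron line, and experiments of a transgene clone, are the replicates. In degron lines each clone is compared with itself, so p-values measure how far responses differ between clones, not how far their levels do. That spread is estimated from all lines and treatments of a table together. Transgene lines were fitted with and without such pairing by experiment. Their p-values measure spread between repeat experiments of single clones, not between clones.

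Libraries held 8.58 to 34.4 M reads, and the least covered reader had 620 to 3595 reads per library, so counting error was small beside the spread between clones. Of 6 stem cell markers, 5 were above 1 CPM in all 80 libraries, and Sox2 was listed at 0 in every library. Cells were grown on feeders. Of 8 feeder (fibroblast) markers 1 to 5 reached 1 CPM, their summed level was 15.5 to 59.3 CPM, most of it Fbn1, and the median of Lum was 0 in every table. The WT XiO clone stood apart, with a summed stem cell marker level of 471 to 652 CPM against 877 to 1900 CPM in all other libraries. Esrrb and Zfp42 were the largest parts of the sum (medians of 437 and 215 CPM over the XiO libraries). Pou5f1 was not low there, at 44.9 to 74.8 CPM in the XiO libraries of both transgenes. Its medians in the other sets of libraries were 29.7 to 55.7 CPM. In these bulk libraries fewer cells of a type and less RNA per cell cannot be told apart.

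The promoters of the 3 readers whose changes recurred in most lines are shown as the 250 bases before the RefSeq start (GRCm38.p6), 5′ to 3′ on the gene's strand. Capitals mark the CCAAT box, the GC box (GGGCGG), the E-box (CACGTG) and the NRF1 element, searched on both strands. They lie in 33.8%, 32.7%, 6.02% and 0.782% of 32851 mouse promoter windows of the same length, in that order. The genes span chr6:49085218-49214954 (Igf2bp3), chr4:132184916-132212256 (Ythdf2) and chrX:68678541-68717961 (Fmr1) in the mm10 annotation. Igf2bp3's promoter is shown at chr6:49214955-49215204 (minus strand), Ythdf2 at chr4:132212257-132212506 (minus strand) and Fmr1 at chrX:68678291-68678540 (plus strand).
Igf2bp3: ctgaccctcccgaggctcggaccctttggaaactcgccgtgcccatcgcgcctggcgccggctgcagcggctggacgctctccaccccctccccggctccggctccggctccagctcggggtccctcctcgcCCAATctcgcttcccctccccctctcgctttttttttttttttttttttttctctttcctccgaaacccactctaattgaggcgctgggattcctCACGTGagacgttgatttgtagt
Ythdf2: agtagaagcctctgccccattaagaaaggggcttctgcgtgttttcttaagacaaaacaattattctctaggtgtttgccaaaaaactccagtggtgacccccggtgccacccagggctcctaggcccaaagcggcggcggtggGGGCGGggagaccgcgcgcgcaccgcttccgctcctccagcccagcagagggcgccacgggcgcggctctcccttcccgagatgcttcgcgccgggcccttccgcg
Fmr1: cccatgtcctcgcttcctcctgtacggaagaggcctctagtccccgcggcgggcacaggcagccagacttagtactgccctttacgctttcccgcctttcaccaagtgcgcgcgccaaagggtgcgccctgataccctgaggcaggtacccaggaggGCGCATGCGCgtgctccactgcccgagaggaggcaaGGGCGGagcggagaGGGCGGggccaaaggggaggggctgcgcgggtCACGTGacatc
Igf2bp3 has a CCAAT box and an E-box, Ythdf2 a single GC box, and Fmr1 an NRF1 element, 2 GC boxes and an E-box. A match is a description of these letters only. The CG dinucleotide occurs 21 times in the Igf2bp3 and Fmr1 windows and 22 times in that of Ythdf2, against a median of 6 over all windows.

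All 10 reader genes were transcribed in every library, over a wide range of levels. Per kb of gene span (introns are counted in these data) Hnrnpa2b1, an abundant nuclear RNA-binding protein gene, was highest, with a median of 56.7 CPM per kb over untreated libraries (38.1 to 76.6). Ythdf3 followed at 12.2 CPM per kb (9.59 to 16.9) and Ythdc1 at 9.83 CPM per kb (6.08 to 15.5). Below them came Igf2bp1 (7.22), Ythdf1 (6.08), Fmr1 (5.76), Ythdf2 (3.44), Ythdc2 (1.84), Igf2bp2 (1.64) and Igf2bp3 (1.48 CPM per kb). By range over libraries only Hnrnpa2b1 was separate from its neighbour in this order, and the ranges of all other neighbours overlapped. The genes were read in the same libraries, so they can also be compared within lines. The untreated mean of Ythdf3 was above that of Ythdc1 in every line or experiment, and so was that of Ythdf2 above Ythdc2. The order of the remaining neighbours changed between lines. In each of 4 tables all 10 readers were above the median of the genes at or above 1 CPM, and in the other two, both with YTHDC1 clones, 9 were, Igf2bp3 being below it. No other gene of the tables overlaps a reader on the same strand.

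**Figure D1:**
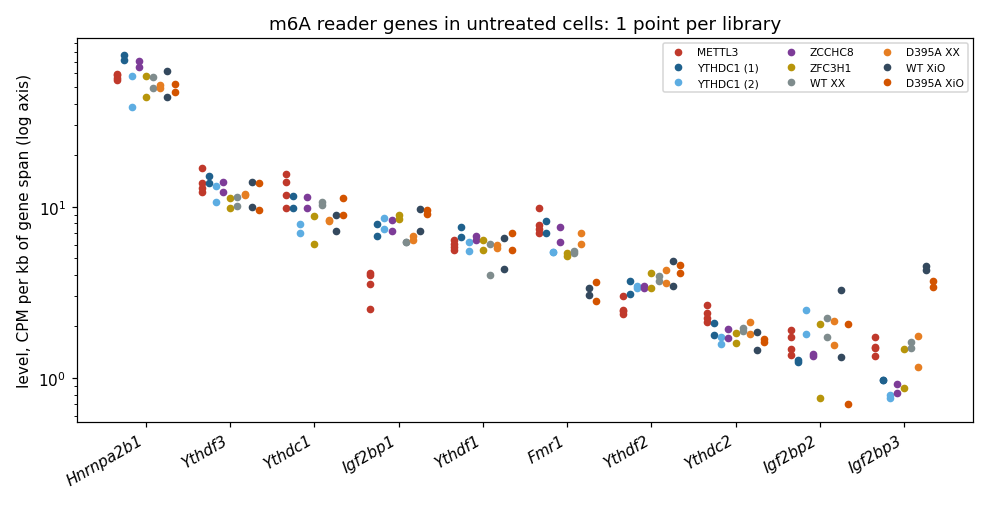
Level of each reader gene in untreated cells, as CPM per kb of gene span on a log axis, with 1 point per library and 1 colour per line. Hnrnpa2b1 lies above all other readers, Igf2bp3 is highest in the XiO clones, and Fmr1 is lowest there.

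Igf2bp3 differed most between lines, 5.63-fold from the lowest to the highest mean of untreated libraries, followed by Igf2bp1 (2.63-fold) and Fmr1 (2.51-fold). Igf2bp2 differed 1.83-fold between line means, and its libraries lay farthest apart within lines, at 339.7 and 138 CPM in the experiments of WT XiO, 216 and 73.2 CPM in those of D395A XiO and 79.4 and 215 CPM in the ZFC3H1 clones. Igf2bp3 stood at 586 and 551 CPM in the 2 untreated WT XiO libraries and at 439 and 478 CPM in the D395A XiO libraries. In the other lines it was at most 229 and 151 CPM (the 2 D395A XX libraries) and as low as 99.3 and 103 CPM (the second YTHDC1 experiment), so the XiO libraries did not overlap with any other. Igf2bp1 was lowest in the METTL3 clones, at 201, 123, 195 and 173 CPM in G4, H1, C3 and H5, below the lowest library of every other line. Tables were scaled separately and each XiO line is 1 clone, so these levels are given as a description. Fmr1, on the X chromosome, stood at 119.8 and 132 CPM in WT XiO and 110.3 and 143 CPM in D395A XiO, cells with a single X, below every untreated library of the lines with both.

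A reader was called changed at a Benjamini-Hochberg adjusted p under 0.05 over all genes of a limma fit to log2(CPM + 1). CPM values are relative, and the median gene shifted with dTAG-13 by 0.21 (without Dox) and 0.23 (with Dox) on the log2 scale in the METTL3 clones, by 0.12 and 0.06 in D395A XX and by 0.12 and 0.11 in D395A XiO. In the other lines it moved by under 0.05. For these 3 lines the main changes are therefore also given relative to the median gene, since the share of calls that are higher depends on the scaling. In METTL3 clones 72.7% of called genes were higher without Dox and 81.6% with Dox, and 40.7% and 43.2% with libraries scaled by the median ratio. With the experiment block described below, those shares in D395A XX went from 74.7% and 67.8% to 48.2% and 50.7%, and in D395A XiO from 75.9% and 76.2% to 48.1% and 45.0%.

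Readers were called in both directions after loss of METTL3 and of YTHDC1. In the METTL3 clones 1 reader rose and 1 fell with dTAG-13 alone, where 16.9% of all genes rose and 6.34% fell, and 1 fell when dTAG-13 was added to Dox (8.6% of genes rose and 1.94% fell). In the first YTHDC1 experiment 2 rose and 1 fell without Dox (10.6% of genes rose and 8.45% fell) and 4 rose and 1 fell with Dox (9.84% and 5.69%). In the second, 3 rose and 1 fell without Dox (8.34% and 9.42%) and 3 rose and 2 fell with Dox (8.32% and 6.34%). So 2 to 4 of the 10 readers rose after YTHDC1 loss, where 8.32% to 10.6% of genes did, while 1 in each direction after METTL3 loss is near the share of all genes. These counts depend on single clones. Leaving out 1 clone left 1 to 2 readers called in the first YTHDC1 experiment without Dox and 0 with Dox, and 0 to 4 in the METTL3 clones without Dox. Where this left 1 clone in a line, its spread was assumed to be that of the other line of the table.

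Loss of ZCCHC8 lowered 1 reader without Dox (16.2% of genes fell) and 2 with Dox (15.2%), which is close to the background. It raised 0 readers by limma, where 19.9% and 25.2% of genes rose, and at an unadjusted p under 0.05 only Ythdf1 with Dox was higher (0.14, adjusted p = 0.0694). With loss of ZFC3H1 no reader was called in either comparison (1.75% and 2.53% of genes rose, 0.399% and 0.62% fell), although by limma 2 readers had an unadjusted p under 0.05 in each. With the WT transgene, dTAG-13 changed 0 of 10 readers in XX and in XiO cells (0% of genes in all 4 comparisons), and by limma 0 readers had an unadjusted p under 0.05 without the experiment block described next and at most 1 with it. With D395A no reader was called in the fit without the experiment as a block (6.01%, 3.19%, 0.402% and 0.0521% of genes for XX and XiO, without and with Dox). The experiments of each clone were separate batches of cells, each divided over the 4 treatments. With the experiment as a block, dTAG-13 called 4 readers higher and 2 lower in D395A XX without Dox (28% and 9.5% of genes) and 2 higher and 2 lower with Dox (19.8% and 9.44%). In D395A XiO it called 2 higher and 4 lower without Dox (26.1% and 8.28%) and 2 higher and 2 lower with Dox (23.7% and 7.39%). The block still called 0 readers with the WT transgene, where 0% of genes were called. A difference between the responses to dTAG-13 with and without Dox was called for 0 of 10 readers in each line (limma, lowest adjusted p = 0.271, with at most 3 readers at an unadjusted p under 0.05). Of all genes 0.00722% and 0.0219% were called so in the YTHDC1 experiments, 0.238% in ZCCHC8 clones, 0.00744% in D395A XiO with the block and 0% elsewhere.

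**Figure D2:**
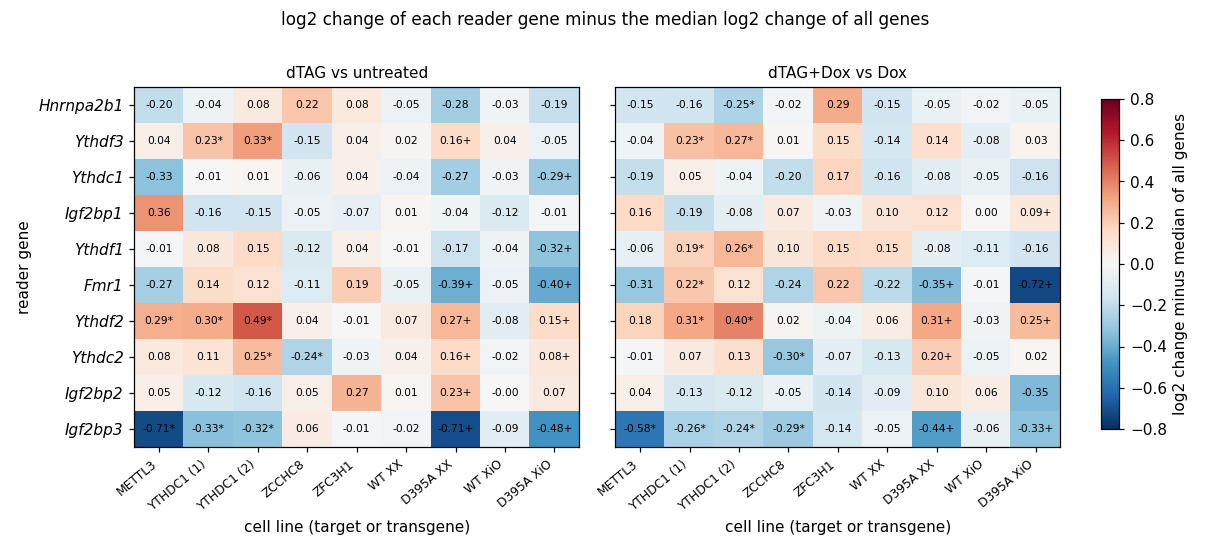
The log2 change of each reader minus the median log2 change of all genes, for dTAG against untreated (left) and dTAG with Dox against Dox (right), in each line, with YTHDC1 (1) and (2) the first and second experiments. A star marks an adjusted p under 0.05 and a plus sign marks an adjusted p under 0.05 only with the experiment as a block, both tested on the change before the median was subtracted. Igf2bp3 is lower in the METTL3, YTHDC1 and D395A columns, Ythdf2 is higher in them, and both are near 0 in the WT columns. On the right Igf2bp3 is also lower, with a star, in the ZCCHC8 column.

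Igf2bp3, an RNA-binding protein gene of the oncofetal IGF2BP family whose products stabilise bound mRNAs, fell when METTL3 was lost. In clones G4, H1, C3 and H5 it stood at 174, 195, 225 and 197 CPM untreated and at 145, 146, 127 and 139 CPM with dTAG-13. With Dox it stood at 147, 186, 202 and 170.1 CPM, and with dTAG-13 and Dox at 135, 142, 135 and 139 CPM. Every clone was lower with dTAG-13 in both comparisons, and the groups did not overlap in either. The log2 change was -0.50 ± 0.0973 (SE, n = 4 clones, limma adjusted p = 0.00422) without Dox and -0.35 ± 0.0973 (adjusted p = 0.0409) with Dox. Relative to the median gene the changes were -0.71 and -0.58. Without clone H5 the first change was unaltered in size at -0.50 with an adjusted p of 0.0506, and the change with Dox lost its call without any of the 4 clones (adjusted p = 0.0838 to 0.208). The feeder marker sum, mostly Fbn1, was 38.4 to 47.1 CPM with dTAG-13 and 26.5 to 40.4 CPM untreated. It was 26.4 to 48.6 CPM with dTAG-13 and Dox and 22.2 to 47.2 CPM with Dox, and its part in the result was not tested.

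Igf2bp3 also fell when YTHDC1 was lost. In Y9F and Y12H it stood at 126 and 126 CPM untreated and 91.9 and 108 CPM with dTAG-13 in the first experiment, and went from 99.3 and 103 to 71.4 and 88.6 CPM in the second. With Dox it stood at 109 and 119 CPM against 89.2 and 104 CPM with dTAG-13 and Dox in the first experiment, and at 82.8 and 81.6 against 67.4 and 72.0 CPM in the second. Both clones were lower with dTAG-13 in each of the 4 comparisons and the groups did not overlap in any. The comparisons share the clones Y9F and Y12H. The log2 change was -0.33 ± 0.0663 (adjusted p = 0.00223) and -0.24 ± 0.0663 (adjusted p = 0.0211) in the first experiment, without and with Dox. In the second it was -0.34 ± 0.0761 (adjusted p = 0.00382) and -0.24 ± 0.0761 (adjusted p = 0.0420). In the first experiment the change without Dox lost its call without clone Y9F (-0.22, adjusted p = 0.264), and that with Dox lost it without either clone. The feeder marker sum in the first experiment was 39.9 to 40.6 CPM with dTAG-13 and 32.2 to 33.7 CPM untreated. It was 33.3 to 34.0 CPM with dTAG-13 and Dox and 29.1 to 31.0 CPM with Dox, and its part was not tested.

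In the exosome adaptor lines Igf2bp3 was called lower only in ZCCHC8 clones with Dox. ZCCHC8 clones Z4F and Z12H stood at 120.1 and 106 CPM untreated and 129 and 106 CPM with dTAG-13, a change of 0.05 ± 0.0663 on the log2 scale (adjusted p = 0.552). The change minus that in the first YTHDC1 experiment of the same table was 0.39 ± 0.0937 (adjusted p = 0.00607, with 25.1% of genes called). It was 0.27 without clone Y9F and 0.34 without Z4F (adjusted p = 0.147 and 0.0550). With Dox Igf2bp3 fell from 114 and 87.7 to 90.2 and 78.5 CPM, a log2 change of -0.25 ± 0.0663 (adjusted p = 0.00706). Both clones were lower, the groups overlapped, and without Z4F the change was -0.16 (adjusted p = 0.209). The effects with Dox in ZCCHC8 and YTHDC1 clones differed by -0.01 (95% interval -0.21 to 0.19). In the ZFC3H1 clones the changes were -0.02 (95% interval -0.22 to 0.19) and -0.14 (-0.34 to 0.06), and neither passed the test.

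The transgene lines compare cells that keep a working METTL3 with cells that keep only the catalytic-site mutant. Each transgene is 1 clone in XX and 1 in XiO cells. A difference between transgenes in XX or in XiO cells therefore cannot be told apart from a difference between clones, here and for the other readers. In experiments 1 and 2 of WT XX, Igf2bp3 stood at 210.5 and 193 CPM untreated and 208 and 192 CPM with dTAG-13. In D395A XX it stood at 229 and 151 CPM untreated and 153 and 99.6 CPM with dTAG-13, and at 246 and 156 CPM with Dox and 179.9 and 124 CPM with both. Both experiments of D395A XX were lower with dTAG-13, while the experiments themselves differed by as much, so that the groups overlapped. The log2 change was -0.59 ± 0.0640 without Dox (adjusted p = 5.89e-06 with the experiment block and 0.231 without it) and -0.39 ± 0.0640 with Dox (adjusted p = 0.000325 and 0.545). Relative to the median gene it was -0.71 and -0.44. In WT XX the log2 changes were -0.01 and -0.01.

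In D395A XiO, Igf2bp3 stood at 439 and 478 CPM untreated and 368 and 342 CPM with dTAG-13, and at 434 and 443 CPM with Dox and 387 and 369.6 CPM with both. Both groups with dTAG-13 lay below their controls without overlap. The log2 changes were -0.37 ± 0.0581 and -0.21 ± 0.0581 (adjusted p = 0.000568 and 0.0157 with the experiment block, 0.144 and 0.504 without it). In WT XiO the level was 586 and 551 CPM untreated and 561 and 527 CPM with dTAG-13, a change of -0.07, and with Dox the change was -0.04. The change in D395A minus that in WT was -0.57 (XX, adjusted p = 0.000781, 16.3% of genes) and -0.38 (XX with Dox, adjusted p = 0.0122, 12.1%) in the fit with the experiment block. In XiO the difference was -0.30 (adjusted p = 0.0298, 14.1% of genes) and -0.17 with Dox (adjusted p = 0.214, 9.3%), so the last did not pass. None of these 4 differences passed without the block (every adjusted p at least 0.727), where 0.00748% and 0.015% of genes were called in XX and 0% in XiO. The summed stem cell marker level in D395A XX was 1409 to 1448 CPM untreated and 1045 to 1138 CPM with dTAG-13, and its part in the result was not tested.

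**Figure D3:**
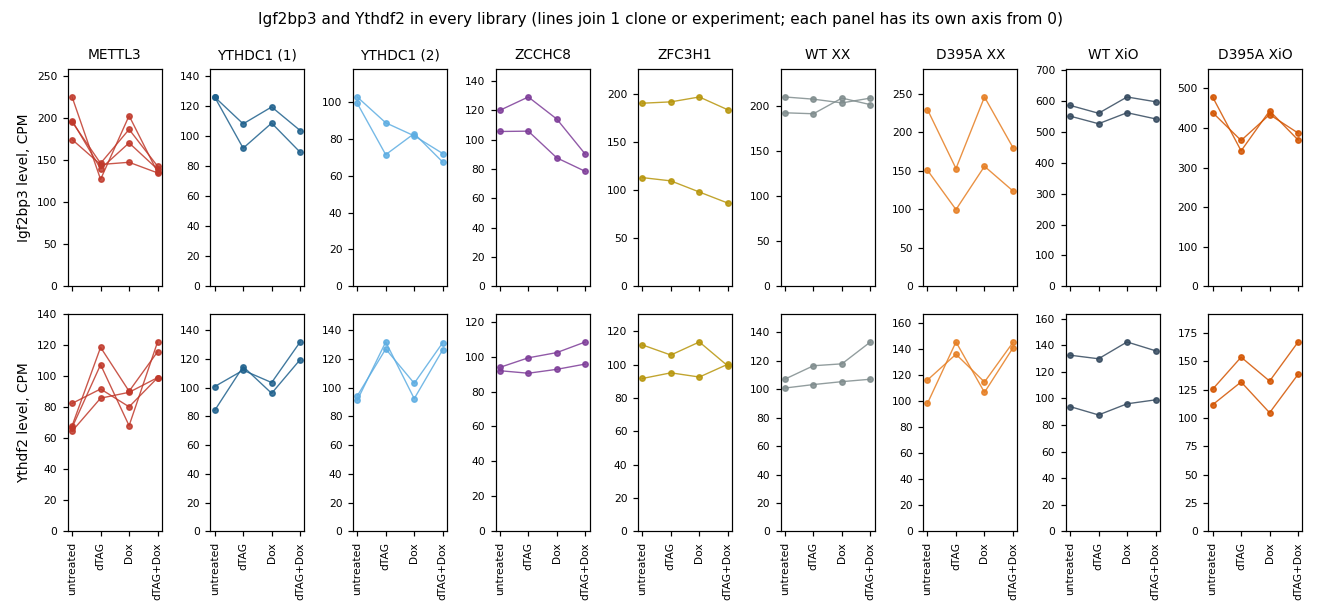
Igf2bp3 (top) and Ythdf2 (bottom) in every library, in CPM, with 1 panel per line, the 4 treatments along the x axis and lines joining the libraries of a clone (degron lines) or an experiment (transgene lines). Each panel has its own axis from 0. All 4 METTL3 clones fall for Igf2bp3 and rise for Ythdf2 from untreated to dTAG, and the lines of the WT panels are nearly level for Igf2bp3.

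Igf2bp1 and Igf2bp2 were called in no degron line with dTAG-13. Igf2bp1 stood at 201, 123, 195 and 173 CPM in untreated METTL3 clones G4, H1, C3 and H5 and at 353, 317, 175 and 210.3 CPM with dTAG-13. It was higher in 3 of 4 clones and the groups overlapped, with a log2 change of 0.57 ± 0.237 (adjusted p = 0.0921), or 0.36 relative to the median gene. In D395A XiO with Dox it was called higher with the experiment block (0.20, adjusted p = 0.0187), and 0.07 with an adjusted p of 0.397 once libraries were scaled by the median ratio. Igf2bp2 was called with the block in D395A XX without Dox (0.35, adjusted p = 0.00290), and its adjusted p was 0.0628 with that scaling.

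Among the YTHDF genes Ythdf2, which codes for the reader that recruits the CCR4-NOT deadenylase to marked mRNA, rose with loss of YTHDC1. In Y9F and Y12H it stood at 101 and 84.2 CPM untreated and 112 and 115 CPM with dTAG-13 in the first experiment, and went from 94.2 and 91.1 to 127 and 132 CPM in the second. With Dox it rose from 104 and 96.1 to 132 and 119.6 CPM in the first experiment and from 103 and 92.3 to 131 and 126 CPM in the second. All 4 groups with dTAG-13 lay above their controls without overlap. On the log2 scale the changes were 0.30 ± 0.0659 and 0.33 ± 0.0659 in the first experiment (adjusted p = 0.00489 and 0.00301) and 0.48 ± 0.0667 and 0.40 ± 0.0667 in the second (adjusted p = 5.12e-05 and 0.000390). In the first experiment the change without Dox was 0.15 without clone Y12H (adjusted p = 0.345), and that with Dox lost its call without either clone.

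In the METTL3 clones G4, H1, C3 and H5 Ythdf2 stood at 67.9, 64.5, 82.4 and 66.8 CPM untreated and 118, 85.7, 91.6 and 107 CPM with dTAG-13, and at 90.2, 89.5, 80.2 and 68.0 CPM with Dox and 116, 99.0, 98.8 and 122 CPM with both. On the CPM scale all 4 clones were higher with dTAG-13 in both comparisons, without overlap between the groups. With libraries scaled by the median ratio the groups overlapped in both comparisons. Clone C3 was then lower with dTAG-13 and Dox than with Dox. The log2 change was 0.51 ± 0.127 (adjusted p = 0.0146) without Dox and 0.41 ± 0.127 (adjusted p = 0.0572) with Dox. Relative to the median gene it was 0.29 and 0.18, and with median-ratio scaling the call without Dox was lost (adjusted p = 0.148). It was also lost without clone G4 (0.41, adjusted p = 0.129) or H5 (0.45, adjusted p = 0.0799).

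In D395A XX Ythdf2 stood at 116 and 98.1 CPM untreated and 136 and 145 CPM with dTAG-13, and at 114 and 106 CPM with Dox and 145 and 141 CPM with both. In D395A XiO dTAG-13 took it from 112 and 125 to 132 and 154 CPM without Dox, and from 105 and 133 to 139 and 167 CPM with Dox. On the CPM scale each of the 4 groups with dTAG-13 was above its controls without overlap. With libraries scaled by the median ratio the groups of D395A XiO overlapped in both comparisons, although each experiment was still higher with dTAG-13. Fitted log2 changes were 0.39 and 0.37 in XX (adjusted p = 0.00129 and 0.00273 with the experiment block, 0.0907 and 0.145 without it). In XiO they were 0.26 and 0.37 (adjusted p = 0.00443 and 0.000758 with the block, 0.851 and 0.779 without it). Relative to the median gene the 4 changes were 0.27, 0.31, 0.15 and 0.25, in the same order. With block and median-ratio scaling together, an alternative chosen after seeing the data, that of D395A XiO without Dox lost its call (adjusted p = 0.0939).

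With the WT transgene the changes of Ythdf2 were 0.08 and 0.10 in XX and -0.06 and -0.01 in XiO, none of them called. D395A exceeded WT by 0.33 and 0.38 in XiO (adjusted p = 0.0214 and 0.0160 with the block), and by 0.32 and 0.27 in XX, which did not pass (0.0695 and 0.137). With block and median-ratio scaling together the XiO differences did not pass either (adjusted p = 0.0936 and 0.0584). ZCCHC8 clones gave 0.03 (95% interval -0.11 to 0.17) and 0.06 (-0.08 to 0.20), with a difference from the YTHDC1 clones of the same table of -0.27 (adjusted p = 0.0441) and -0.26 (adjusted p = 0.0418, 29.6% of genes called with Dox). The first of these differences was -0.12 without clone Y12H (adjusted p = 0.516) and also lost its call without Z4F or Z12H, and the second lost it without any of the 4 clones (adjusted p = 0.0924 to 0.163). ZFC3H1 clones gave -0.01 (-0.22 to 0.19) and -0.04 (-0.24 to 0.16).

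Ythdf3 and Ythdf1, the paralogues of Ythdf2, rose in the YTHDC1 clones. Ythdf3 stood at 465 and 511 CPM untreated and 591 and 551 CPM with dTAG-13 in Y9F and Y12H of the first experiment, and went from 360.1 and 448 to 499 and 503 CPM in the second. The groups did not overlap in either. With Dox it went from 488 and 449 to 579 and 538 CPM in the first experiment and from 387 and 473 to 466 and 569.6 CPM in the second, where each clone was higher with dTAG-13 but the groups overlapped. The log2 change was 0.23 (adjusted p = 0.0176) and 0.32 (adjusted p = 0.00299) without Dox, and 0.25 (adjusted p = 0.0114) and 0.27 (adjusted p = 0.0117) with Dox. In the first experiment the change with Dox lost its call without either clone. Without clone Y9F the change of the first experiment without Dox was 0.11 (adjusted p = 0.549). In ZCCHC8 clones it was -0.16 without Dox (adjusted p = 0.0546), a difference from YTHDC1 clones of -0.39 (adjusted p = 0.00402, and -0.27 with 0.0883 without Y9F). In D395A XX without Dox Ythdf3 was called higher with the experiment block (0.28, adjusted p = 0.0230), and with block and median-ratio scaling together its adjusted p was 0.247.

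Ythdf1 passed the test with Dox only: it went from 122 and 108 to 141 and 125 CPM in the first YTHDC1 experiment and from 91.4 and 105 to 108 and 129 CPM in the second. Both clones rose in each and the groups did not overlap. The changes on the log2 scale were 0.21 ± 0.0580 (adjusted p = 0.0236, and 0.0554 with median-ratio scaling) and 0.26 ± 0.0638 (adjusted p = 0.00789). The call in the first experiment was lost without either clone (0.21 with adjusted p = 0.322 without Y9F, 0.20 with 0.293 without Y12H). Without Dox the changes were 0.08 and 0.14 (adjusted p = 0.360 and 0.153). In the METTL3 clones Ythdf1 changed by 0.20 on the CPM scale and by -0.01 relative to the median gene, so its direction turned with the scaling, and it did not pass the test (adjusted p = 0.0883). In D395A XiO without Dox it was called lower with the experiment block (-0.21, adjusted p = 0.0256).

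Among the YTHDC genes Ythdc1 is itself the target of a degron. The degron removes protein, so the RNA level does not check the depletion. Ythdc1 stood at 317 and 369.6 CPM untreated and 311 and 374 CPM with dTAG-13 in the first YTHDC1 experiment and went from 255 and 226 to 247 and 232 CPM in the second. The groups overlapped in both. The log2 changes were -0.01 (95% interval -0.16 to 0.15) and -0.004 (-0.14 to 0.13), so no change of the transcript with loss of its protein was detectable. In D395A XiO Ythdc1 was called lower with dTAG-13 with the experiment block (-0.17, adjusted p = 0.0403), and in D395A XX it was -0.15 (adjusted p = 0.137, and 0.0101 with block and median-ratio scaling).

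Ythdc2, the helicase reader, fell in ZCCHC8 clones, from 104 and 118 to 88.2 and 97.7 CPM in Z4F and Z12H without Dox and from 96.0 and 104 to 80.9 and 85.6 CPM with Dox. Neither pair of groups overlapped. On the log2 scale the changes were -0.25 ± 0.0696 (adjusted p = 0.0107) and -0.26 ± 0.0696 (adjusted p = 0.00665), and both lost their call without either clone (adjusted p = 0.0598 to 0.135). In the second YTHDC1 experiment Ythdc2 rose by 0.24 (adjusted p = 0.0273), from 96.2 and 106 to 125 and 113 CPM, and in the first it did not pass the test (0.11). The ZCCHC8 change minus that of the YTHDC1 clones in the same table was -0.36 (adjusted p = 0.0139) and -0.36 (adjusted p = 0.0120). Without clone Y9F these differences were -0.23 and -0.31 (adjusted p = 0.186 and 0.0721), and calls were also lost without Z12H in both and without Z4F in the first. With the experiment block Ythdc2 was called higher in D395A XX (0.28 without and 0.25 with Dox) and in D395A XiO without Dox (0.20), and with median-ratio scaling added to the block no such call was left (adjusted p = 0.213, 0.127 and 0.474).

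Hnrnpa2b1, a nuclear ribonucleoprotein gene, passed the test only in the second YTHDC1 experiment. There it stood at 548 and 360.1 CPM untreated, 661 and 535 CPM with Dox and 540.3 and 466 CPM with dTAG-13 and Dox in Y9F and Y12H. Both clones moved alike, but the groups overlapped. The log2 change with Dox was 0.42 (adjusted p = 0.00111, 10% of genes called) and that with dTAG-13 in the presence of Dox was -0.24 (adjusted p = 0.0417, and 0.0521 with median-ratio scaling). In the first experiment the same changes were 0.25 (adjusted p = 0.191) and -0.14 (adjusted p = 0.466).

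Fmr1, which encodes the translational repressor FMRP and lies on the X chromosome, fell with Dox in 8 of the 9 lines or experiments once the experiment block is counted for the transgene lines. Untreated METTL3 clones G4, H1, C3 and H5 stood at 276, 387, 309 and 292 CPM and Dox-treated clones at 172, 156, 273 and 297 CPM, lower in 3 of 4, with a log2 change of -0.54 ± 0.179 (adjusted p = 0.252, 0.778% of genes called). In the other lines all libraries with Dox were below all untreated libraries of their line. The log2 change with Dox was -0.55 and -0.36 in the YTHDC1 experiments (adjusted p = 0.000122 and 0.00430, 12.6% and 10% of genes) and -0.52 in ZCCHC8 clones (adjusted p = 0.000248, 10.9%). Without clone Y12H the first of these was -0.38 (adjusted p = 0.0646). In ZFC3H1 clones it was -0.39 (adjusted p = 0.0462, and 0.0630 with median-ratio scaling, 1.11%).

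In the transgene lines Fmr1 went with Dox from 211 and 217 to 159 and 186 CPM in WT XX and from 237 and 277 to 151 and 199 CPM in D395A XX. In XiO cells, which have no second X, it went from 119.8 and 132 to 69.6 and 64.7 CPM (WT) and from 110.3 and 143 to 77.3 and 76.9 CPM (D395A). No group with Dox overlapped with its untreated group. Fitted log2 changes were -0.31, -0.56, -0.89 and -0.70 in that order, with adjusted p values of 0.0348, 0.000208, 2.60e-05 and 0.000357 with the experiment block (3.18%, 5.86%, 12% and 7.8% of genes). Without the block 0.00748%, 0.232%, 1.17% and 0.58% of genes were called and Fmr1 passed in WT XiO alone (adjusted p = 0.00836). Without experiment 1 the change there was -1.02 (adjusted p = 0.319) and without experiment 2 -0.77 (adjusted p = 0.723), each from 1 library per group, assumed to vary like the D395A XiO libraries of the same table. Besides Fmr1, and Hnrnpa2b1 in the second YTHDC1 experiment as given above, Dox called 3 other readers. They were Igf2bp3, lower in the second YTHDC1 experiment (-0.29, adjusted p = 0.0160), Igf2bp2, higher in ZFC3H1 clones (0.54, adjusted p = 0.0322, and 0.0525 with median-ratio scaling), and Ythdc1, higher in WT XiO with the block (0.21, adjusted p = 0.0354).

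**Figure D4:**
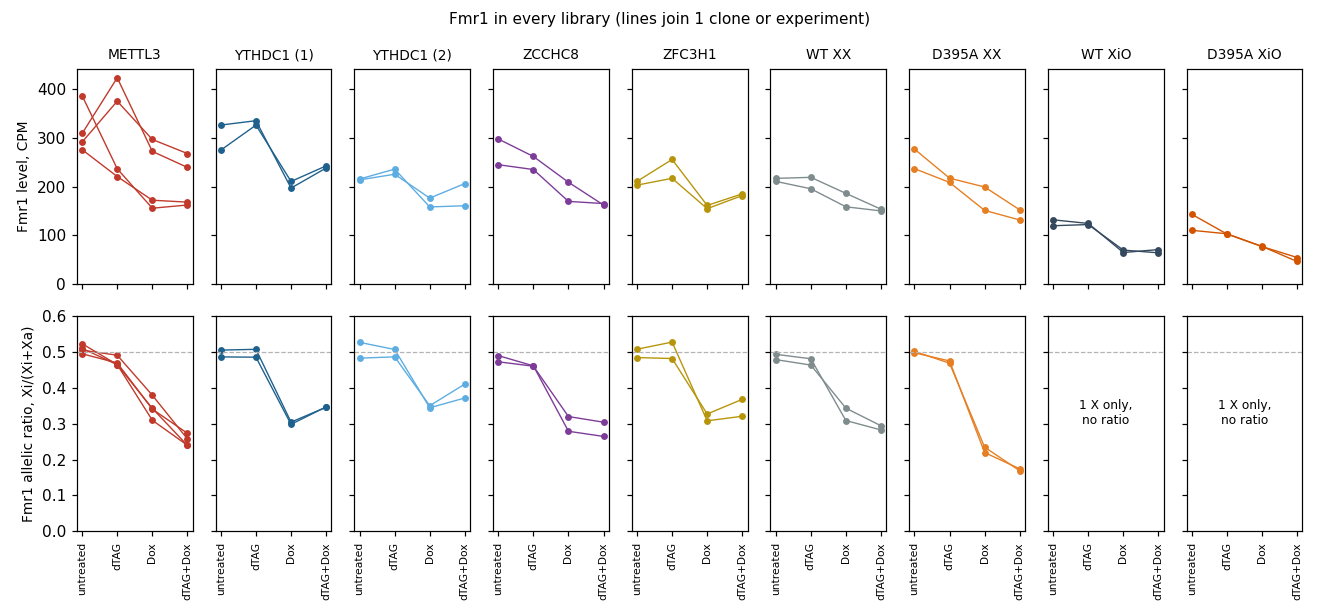
Fmr1 in every library: level in CPM (top) and allelic ratio, the fraction of reads over sequence variants that derives from the X carrying inducible Xist (bottom, dashed line at 0.5), with 1 panel per line and lines joining the libraries of a clone or an experiment. With Dox the level is lower in every clone or experiment shown except METTL3 clone H5 and the ratio in each of them, and the ratio is lowest with dTAG and Dox in the METTL3, ZCCHC8, WT XX and D395A XX panels.

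With the experiment block, Fmr1 was called lower when dTAG-13 was added to Dox in D395A cells. In D395A XiO it stood at 77.3 and 76.9 CPM with Dox and 46.3 and 54.5 CPM with dTAG-13 and Dox, and in WT XiO it went from 69.6 and 64.7 to 64.1 and 70.7 CPM. The D395A groups did not overlap and the WT groups did. The change in D395A XiO was -0.61 ± 0.0919 (adjusted p = 0.000554 with the experiment block, 0.118 without it), or -0.72 relative to the median gene, and it differed from that of WT XiO by -0.61 (adjusted p = 0.0140 with the block, 0.974 without it). In the METTL3 clones Fmr1 went with dTAG-13 by -0.05 and -0.08, without and with Dox, where the median gene moved by 0.21 and 0.23. Fmr1 did not pass the test there (adjusted p = 0.842 and 0.775). In D395A XX Fmr1 went from 151 and 199 CPM with Dox to 132 and 153 CPM with both, and these groups overlapped. The change was -0.29 with Dox and -0.27 without Dox (adjusted p = 0.00965 and 0.0136 with the block, 0.319 and 0.311 without it). The median gene of D395A XX moved by 0.06 and 0.12, in the same order. In WT XX it went from 159 and 186 to 150.2 and 154 CPM, without overlap and without passing the test (-0.18, adjusted p = 0.682 with the block). The change in D395A XX with Dox minus that in WT XX was -0.11 and did not pass either (adjusted p = 0.537 with the block). The change in D395A XiO without Dox was -0.29 (adjusted p = 0.0296), where the median gene moved by 0.12.

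In the first YTHDC1 experiment Fmr1 went the other way, from 211 and 197 CPM with Dox to 243 and 238 CPM with both (0.24 ± 0.0783, adjusted p = 0.0497). That call was lost with median-ratio scaling (adjusted p = 0.111) and without either clone. In the ZCCHC8 clones of the same table it went from 169.8 and 209 to 165 and 162 CPM (-0.20, adjusted p = 0.0507), and the difference between the targets was -0.44 ± 0.111 (adjusted p = 0.00694). Without clone Z12H that difference was -0.28 (adjusted p = 0.132).

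The deposited allelic ratio shows which X the Fmr1 RNA came from, with a minimum of 10 variant-covering reads and otherwise unknown depth. In untreated METTL3 clones G4, H1, C3 and H5 the share from the X with inducible Xist was 0.494, 0.509, 0.522 and 0.504. With Dox it was 0.340, 0.342, 0.309 and 0.379, and with dTAG-13 and Dox it was 0.273, 0.240, 0.240 and 0.257. All 4 clones were lower with dTAG-13 and Dox than with Dox, and the groups did not overlap. The mean difference was -0.090 ± 0.0147 (SE, limma adjusted p over 396 X-linked genes = 0.00141), where the median gene changed by -0.064 and 55.1% of genes were called lower. Without Dox the difference was -0.036 (adjusted p = 0.288), and the effect of dTAG-13 with Dox minus that without was -0.055 (adjusted p = 0.0825).

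In the XX transgene lines the Fmr1 ratio went from 0.219 and 0.234 with Dox to 0.174 and 0.169 with dTAG-13 and Dox in D395A, and from 0.309 and 0.343 to 0.282 and 0.294 in WT. Each experiment was lower with dTAG-13 in both lines. The difference was -0.055 ± 0.0159 in D395A (adjusted p = 0.0390, and 0.0545 with the experiment block, the median gene changing by -0.055 and 18.3% of genes called lower) and -0.038 in WT (adjusted p = 0.603). The difference between the lines did not pass (adjusted p = 0.722). In YTHDC1 clones the ratio was higher with dTAG-13 and Dox, from 0.304 and 0.298 to 0.346 and 0.347 in the first experiment and from 0.344 and 0.350 to 0.371 and 0.410 in the second, without passing the test (adjusted p = 0.0903 and 0.343). The median gene of the YTHDC1 experiments changed by 0.045 and 0.037, and 37 of 263 and 0 of 279 genes were called higher. In ZCCHC8 clones the Fmr1 difference was -0.015 (adjusted p = 0.491). There the median gene changed by -0.067 and 123 of 263 genes were called lower, so Fmr1 moved less than the median gene. In ZFC3H1 clones it was 0.027 (not called), where the median gene changed by 0.007 and 0 of 417 genes were called. Dox alone lowered the ratio in all 7 lines or experiments with both X chromosomes, with differences from -0.157 ± 0.0247 in the second YTHDC1 experiment to -0.272 ± 0.0159 in D395A XX (every adjusted p at most 0.00579). Most other genes did the same: 90.7% were called lower in METTL3 clones, 93.5% and 91% in the YTHDC1 experiments, 93.9% in ZCCHC8, 58.8% in ZFC3H1, 87.3% in WT XX and 92.4% in D395A XX.

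The m6A writer and eraser genes, a list of 10, were read in the same fits. In the METTL3 clones 3 rose and 2 fell with dTAG-13 (median log2 change 0.23, that of all genes 0.21), where 23.3% of all genes were called. Of the list these included Wtap, a scaffold of the writer complex (-0.43, adjusted p = 0.00815), and Rbm15, which recruits the complex to RNA (0.51, adjusted p = 0.00818, and 0.125 with median-ratio scaling). With Dox (10.5% of genes called) 1 rose, again Rbm15 (0.49, adjusted p = 0.0197, and 0.227 with that scaling). Without the experiment block Wtap was the 1 gene of the list called in D395A XX without Dox (-0.73, adjusted p = 0.0113, 6.01% of genes called). With the block, dTAG-13 called 4 and 2 of the list in D395A XX, without and with Dox (37.5% and 29.3% of genes). In D395A XiO it called 4 and 4 (34.4% and 31.1%), so these counts are near the background. With the WT transgene 0 were called, where 0% of genes were. Virma, another scaffold, rose in both YTHDC1 experiments, by 0.35 and 0.36 without Dox (adjusted p = 0.000650 and 0.000707) and by 0.24 and 0.26 with Dox (adjusted p = 0.0125 and 0.0124). Of the 10, 2 and 1 were called in the first experiment without and with Dox and 1 in each comparison of the second, where 19%, 15.5%, 17.8% and 14.7% of all genes were, so these counts are near the background. In ZCCHC8 clones 2 rose and 1 fell without Dox and 1 rose and 2 fell with Dox, below the 36.1% and 40.4% of all genes called there, with Rbm15b at 0.37 and 0.62 (adjusted p = 0.00531 and 6.68e-05). In ZFC3H1 clones 0 were called without Dox and 1 with Dox (2.15% and 3.15% of genes), Rbm15 (0.76, adjusted p = 0.00979).

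A second list held 12 genes of indirect readers and of proteins that work with the readers. In each degron comparison with dTAG-13 0 to 2 of the 12 were called, against 2.15% to 40.4% of all genes. In ZCCHC8 clones 2 were called in each, below the share of all genes. In the METTL3 clones 2 fell without Dox, Elavl1 (-0.29, adjusted p = 0.0112) and Hnrnpc (-0.35, adjusted p = 0.0386), both RNA-binding proteins. Rbmx, an X-linked reader of methylation-exposed sequence, rose with dTAG-13 in the presence of Dox in the first YTHDC1 experiment (0.35, adjusted p = 0.00893) and in ZFC3H1 clones (0.50, adjusted p = 0.0269) and fell in ZCCHC8 clones (-0.35, adjusted p = 0.00334). Rbmx, like Fmr1, was called lower with Dox alone in both YTHDC1 experiments, in ZCCHC8 and ZFC3H1 clones and in WT XiO, by -0.42 to -1.41.

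To place each reader among all genes, its paired log2 changes with dTAG-13, after median-ratio scaling, were correlated over 40 library pairs (each library with dTAG-13 against its control of the same clone or experiment and Dox state) with those of 12670 other genes. The most alike genes were Wac (r = 0.93) for Ythdc1, Zbtb41 (r = 0.88) for Ythdc2, Nbeal1 (r = 0.91) for Ythdf3, Zc3h7b (r = 0.90) for Igf2bp1, Ranbp17 (r = 0.90) for Igf2bp3, Hnrnpk (r = 0.89) for Hnrnpa2b1 and Atg3 (r = 0.91) for Fmr1. For Ythdf1, Ythdf2 and Igf2bp2 the highest r was 0.77 with Hadha, 0.79 with Kcnj14 and 0.82 with Nhsl2. Among the readers themselves Ythdf3 and Ythdc2 were most alike (r = 0.86), and Igf2bp1 and Ythdf3 least (r = -0.74). The pairs share clones, library composition and scaling, so these values are descriptions across pairs.

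The readers' own mRNAs also differ in the core letters of the m6A consensus, GGACT. The median RefSeq mRNA of 11545 genes holds 3. Igf2bp1 holds 10, all in its last exon. Its mRNA is long (8.38 kb, 6.43 kb of it the last exon), and per kb it holds 1.19, where the median gene holds 1.05. Ythdf2 and Igf2bp2 hold 5 each, of which 3 and 1 lie in the last exon, Ythdc2 holds 3, and the other readers 1 or 2, Igf2bp3 having 2. Counts of letters do not say that a site is methylated.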

How the data were processed

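Chromatin-associated RNA-seq was read from the deposited tables of 80 libraries. Per the study's methods, the authors discarded ribosomal reads (bowtie2), mapped the others with STAR to mm10 masked at the strains' variants, kept unique alignments, split alleles with SNPsplit, and counted strand-specific reads over whole transcript spans with featureCounts. The deposited expression values are CPM scaled by the authors with edgeR, and all were whole multiples of 1 read, worth 0.0291 to 0.117 CPM per library. The deposited allelic ratios are fractions, Xi/(Xi + Xa), with no read numbers, so their depth is unknown. Another 24 columns matched no sample and were not used. Reads without molecular identifiers make depth a measure of counting error only. Igf2bp3 overlaps Malsu1 on the opposite strand.

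Genes averaging 1 CPM or more were kept, and their log2(CPM + 1) was tested with limma 3.58.1 in R 4.3.3 (eBayes with trend, two-sided, Benjamini-Hochberg over all genes), with all libraries of a table and the clone as a block in degron lines. Transgene lines were fitted without and with the experiment as a block. Per the study's methods the wells of a replicate came from 1 batch of cells, so experiment numbers pair the samples. Residuals of libraries of 1 experiment correlated by 0.43 to 0.92 across genes in the transgene lines, and those of 1 clone by -0.18 to 0.90 in the degron lines. Likeness was Pearson's r over paired changes after median-ratio scaling. Alternatives were a pseudocount of 0.25, no filter, median-ratio scaling, edgeR 4.0.16 quasi-likelihood on recovered reads, no block, only the groups compared, the share of genes under 3 kb as a covariate (METTL3) and leaving out each replicate, and fits were tested on simulated data. The readers, the other lists and the genes named were chosen with earlier results of these data known. Named were all readers and, from the other lists, at most 2 called genes per line and comparison, those with the largest change. Over 56 pairs of replicates none were identical. Promoters and mRNAs are from RefSeq, GRCm38.p6, with 22429 of 22556 symbols matched. Readers without a promoter entry used here are named only.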

Additional observations from a re-analysis of the deposited data

Results flagged for a closer look

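Of 44 groups of 4 METTL3 libraries tested over the 10 readers and the Fmr1 ratio, 2 held a library far from the other three: Ythdc1 in clone H5 stood at 568 CPM with Dox and at 571 CPM with dTAG-13 and Dox, against 329 to 361 CPM and 336 to 373 CPM in G4, H1 and C3. Chance gives about 1 such group in 20.

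Responses to dTAG-13 that differed between lines under the same contrast were as follows, on the log2 scale. ZCCHC8 minus the first YTHDC1 experiment (limma) gave -0.36 and -0.36 for Ythdc2 and -0.27 and -0.26 for Ythdf2, without and with Dox. It gave -0.39 for Ythdf3 and 0.39 for Igf2bp3 without Dox, and -0.44 for Fmr1 with Dox. D395A minus WT with the experiment block gave -0.57 and -0.38 for Igf2bp3 in XX and -0.30 in XiO without Dox. In XiO it gave 0.33 and 0.38 for Ythdf2, and -0.61 for Fmr1 with Dox.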

How the results depend on the processing

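No called reader changed sign under any alternative run. The number of readers called, given without and then with Dox where both are named, moved as follows. Without the filter it was 0 for METTL3 with Dox (1 in the analysis reported), 2 for the second YTHDC1 experiment with Dox (5), 1 for its Dox effect (3) and 0 for the ZFC3H1 Dox effect (2), and 13 calls were lost over all lines. Without the clone as a replicate block it was 0 for METTL3 with Dox, for the first YTHDC1 experiment, ZCCHC8 and their difference, with and without Dox, for all 3 comparisons of the second YTHDC1 experiment and for the ZFC3H1 Dox effect, and 33 of 37 calls were lost. With only the groups compared it was 0 for METTL3 with Dox, 9 for the first YTHDC1 experiment with Dox (5), 2 for its Dox effect (1), 5 for ZCCHC8 without Dox (1), 3 for its Dox effect (1), 2 for ZFC3H1 with Dox (0) and 0 for WT XiO with Dox alone (1). With median-ratio scaling it was 1 for METTL3 without Dox (2), 3 for the first YTHDC1 experiment with Dox, 4 for ZCCHC8 with Dox (2) and 0 for the ZFC3H1 Dox effect. With edgeR on the recovered reads (100% of values whole) it was 1 for METTL3 without Dox and 0 for the ZFC3H1 Dox effect. Of all genes edgeR called 2490 and 892 in METTL3 clones, against 3108 and 1408 by limma. With the experiment as a replicate block it was 6 and 4 in D395A XX, 6 and 4 in D395A XiO, 1 for Dox in each of WT XX, D395A XX and D395A XiO and 2 in WT XiO, 1 and 1 for D395A minus WT in XX and 2 and 2 in XiO, against 0, or 1 for Dox in WT XiO. With block and median-ratio scaling, chosen after seeing the data, these were 5 and 3, 4 and 4, 1 each for Dox in WT XX, D395A XX and D395A XiO, 2 and 1, and 1 and 1. A pseudocount of 0.25 lost 0 calls, and the short-gene covariate lost 0 of 3 in METTL3 clones.

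Leaving out 1 replicate gave 0 to 4 readers for METTL3 without Dox and 0 with Dox. In the lines that follow it left 1 library per group, assumed to vary like the other line of the table. It gave 1 to 2 and 0 for the first YTHDC1 experiment without and with Dox and 0 to 1 for its Dox effect. For ZCCHC8 it gave 0 and 1 to 2, for its Dox effect 1 to 2, and for ZCCHC8 minus YTHDC1 1 to 3 and 0 to 4. For WT XiO with Dox alone it gave 0. In the second YTHDC1 and the ZFC3H1 tables no residual degrees of freedom were left, and no count was made.

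The Fmr1 ratio difference of D395A XX with Dox was -0.055 with the replicate block (adjusted p = 0.0545) and -0.066 to -0.045 without an experiment (adjusted p = 0.269 and 0.633). With the change without Dox subtracted it was -0.028 in D395A XX and -0.055 in METTL3 clones, neither passing, and 0.00536 in ZCCHC8, which turned sign.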
